A study of Mus musculus with 12 samples.

Results

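Immediate early genes are genes that cells switch on within minutes of a stimulus without first making new protein. In neurons, calcium entry and kinase signalling act on factors already bound at these genes, chiefly CREB at cyclic AMP response elements and SRF at CArG boxes. Many of the products are transcription factors or synaptic proteins, and their transcripts are short-lived, so their level in brain tissue follows recent activity as well as cell identity. The 33 genes described here are the neuronal activity immediate early genes of a fixed symbol list, matched by Ensembl identifier. They were found among 38924 genes in each deposited table, and all 33 passed the low-count filter that left 16493 genes for testing. The list was chosen with earlier results of these data known. Its shares, set below against those of all genes, are therefore descriptions and not tests.

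The libraries came from whole brains of 6-week-old mice, with 3 mice for each of 4 genotypes. The mutant mice carried 2 copies of a Rorb high stepper allele. The gene Rorb codes for a DNA-binding orphan nuclear receptor. The h4 mice were Rorbh4/h4 on the B6.129S7-Il1r1tm1Imx/J strain, the h2 mice were Rorbh2/h2 on B6(Cg)-Tyrc-2J/J, and the h1 mice were Rorbh1/h1 on C57BL/6J. The control mice were wild type (WT) on C57BL/6J. For h4 and h2, the Rorb allele and the strain therefore cannot be told apart. The labels name no stimulus, no handling before death and no hour of collection, and give no sex. In whole brain, fewer cells of a type and less RNA per cell cannot be told apart.

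Libraries held 14513825 to 24694178 expected counts, and h2 replicate 1 was the shallowest. Rorb itself had 9.11, 8.65 and 8.66 CPM (expected counts scaled to the library total) in h4 brains, against 18.4, 16.3 and 17.1 CPM in WT brains. It had 31.1, 31.0 and 22.6 CPM in h2 brains and 23.2, 33.1 and 22.6 CPM in h1 brains. Rorb passed the test against WT in h4 (log2 fold change -0.98, edgeR adjusted p = 0.0309), but not in h2 (0.70, adjusted p = 0.147) or h1 (0.62, adjusted p = 0.242). Xist, a transcript of female cells, was high in 2 of 3 h4, 1 of 3 h2, 1 of 3 h1 and 3 of 3 WT libraries. By this transcript, sex was not balanced in any comparison with WT, h1 against WT included, or in h4 against h1 or h2. Fits with Xist as a covariate are given below. All 10 markers fixed for neurons passed the low-count filter. Their summed level was 7688 to 7761 CPM in h4 and 7709 to 7952 CPM in h2. It was 7809 to 7917 CPM in h1 and 7726 to 7900 CPM in WT.

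The windows upstream of 6 of these genes are shown because they hold the response element in very different numbers. RefSeq gave start-site windows on GRCm38.p6 for 24 of the 33 genes, and the 250 bases before each start were searched on both strands. The short cyclic AMP response element TGACG was in a window of 18 of the 24 genes (75.0%), against 28.8% of the 12200 tested genes with a window. The full element TGACGTCA, which contains the short one, was in 3 of 24 (12.5%), against 2.90% of those genes. The CArG box was found in Dusp5 and Egr2 (8.33%, against 1.43% of those genes). The AP-1 motif TGANTCA was in Bdnf alone (4.17%, against 5.53%). The EGR motif GCGGGGGCG was in Fosb, Fosl2, Klf4 and Nr4a1 (16.7%, against 5.44%). A gene with several windows was counted if any 1 of them matched. Counted by window, TGACG was in 20 of the 35 windows of the 24 genes (57.1%), against 17.8% of the 32851 windows of all genes. No window was given for Arc, Dusp4, Egr1, Egr3, Ier2, Klf10, Nptx2, Sik1 and Trib1, so their motifs are unknown here. Elements farther than 250 bases from a start were not searched for. In the lines that follow, read 5′ to 3′ toward the start, capitals mark TGACG or its reverse complement, and in Nr4a1 also the EGR motif. The window of Npas4 lies at chr19:4989972-4990221 on the minus strand, that of Nr4a1 at chr15:101266596-101266845 on the plus strand and that of Nr4a2 at chr2:57124004-57124253 on the minus strand. The window of Nr4a3 lies at chr4:48045055-48045304, that of Fos at chr12:85473640-85473889 and that of Gadd45g at chr13:51846425-51846674, all on the plus strand.
Npas4: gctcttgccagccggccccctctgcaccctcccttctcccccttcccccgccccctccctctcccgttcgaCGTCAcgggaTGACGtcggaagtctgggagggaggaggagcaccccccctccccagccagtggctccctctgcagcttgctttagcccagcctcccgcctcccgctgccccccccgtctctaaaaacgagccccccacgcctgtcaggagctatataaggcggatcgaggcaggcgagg
Nr4a1: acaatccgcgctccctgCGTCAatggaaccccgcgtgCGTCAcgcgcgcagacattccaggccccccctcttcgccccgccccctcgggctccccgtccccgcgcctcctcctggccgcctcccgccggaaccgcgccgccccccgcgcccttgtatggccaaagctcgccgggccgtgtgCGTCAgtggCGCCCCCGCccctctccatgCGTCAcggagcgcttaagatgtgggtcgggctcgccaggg
Nr4a2: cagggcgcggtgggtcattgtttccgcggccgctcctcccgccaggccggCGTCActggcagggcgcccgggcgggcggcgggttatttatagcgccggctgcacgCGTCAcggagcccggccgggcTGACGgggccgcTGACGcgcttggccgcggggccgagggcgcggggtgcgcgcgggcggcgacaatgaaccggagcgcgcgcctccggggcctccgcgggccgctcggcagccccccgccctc
Nr4a3: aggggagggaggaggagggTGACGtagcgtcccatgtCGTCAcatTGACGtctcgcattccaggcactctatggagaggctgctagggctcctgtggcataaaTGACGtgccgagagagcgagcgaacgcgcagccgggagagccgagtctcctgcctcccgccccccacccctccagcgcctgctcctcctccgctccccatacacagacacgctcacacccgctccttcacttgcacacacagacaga
Fos: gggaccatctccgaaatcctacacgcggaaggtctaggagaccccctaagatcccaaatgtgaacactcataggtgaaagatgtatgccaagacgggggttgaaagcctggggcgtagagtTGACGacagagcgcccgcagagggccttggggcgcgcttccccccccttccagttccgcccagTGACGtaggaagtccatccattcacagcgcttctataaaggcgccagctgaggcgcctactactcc
Gadd45g: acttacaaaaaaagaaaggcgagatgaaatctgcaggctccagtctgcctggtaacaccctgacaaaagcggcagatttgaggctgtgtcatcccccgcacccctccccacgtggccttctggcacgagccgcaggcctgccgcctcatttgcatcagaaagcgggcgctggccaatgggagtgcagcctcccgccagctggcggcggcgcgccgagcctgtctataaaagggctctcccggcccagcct
Nr4a1, Nr4a2 and Nr4a3 had 4 matches each, Npas4 and Fos had 2, and Gadd45g had 0. These matches describe letters in the windows only, and binding was not measured.

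Scaled by transcript length, the genes covered a wide range of levels. Averaged over the 12 libraries, Egr1 stood at 97.1 TPM (transcript abundance scaled to the library), Homer1 at 91.6 TPM, Arc at 65.5 TPM, Rgs2 at 40.2 TPM and Nr4a1 at 38.6 TPM. Egr2 averaged 4.09 TPM and Atf3 1.5 TPM. Within a gene, CPM are used below. Between the lowest and the highest of the 12 libraries, Egr2 differed 10.2-fold, Fos 6.28-fold, Atf3 5.21-fold, Npas4 4.29-fold and Arc 3.91-fold. Bdnf, a neurotrophin gene with several promoters that were counted together, differed 1.2-fold.

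**Figure D1:**
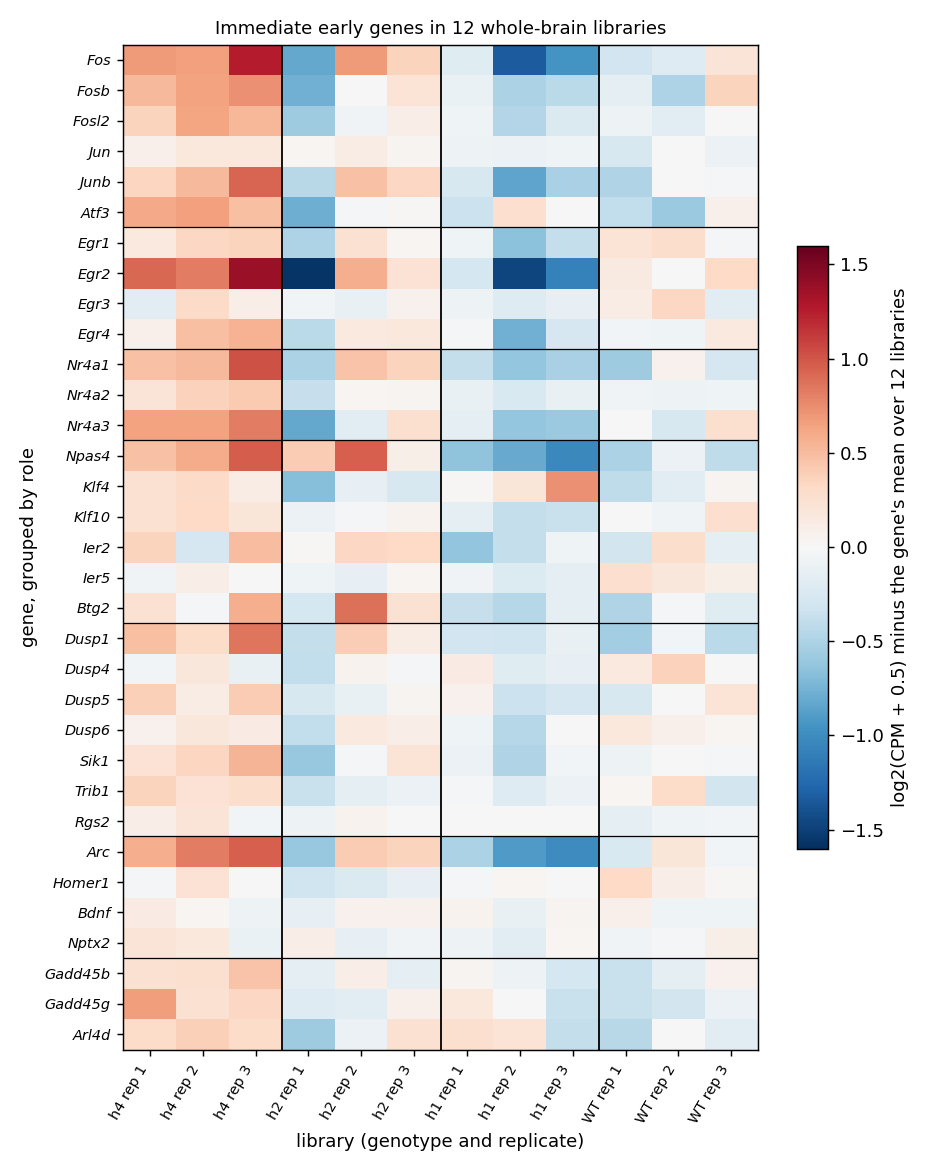
Level of each of the 33 genes (rows, grouped by role) in each of the 12 libraries (columns, by genotype), as log2(CPM + 0.5) minus the mean of the gene over the libraries. Most genes are above the mean in the 3 h4 columns and in h2 replicates 2 and 3. Most are below it in the 3 h1 columns, h2 replicate 1 and WT replicates 1 and 2. WT replicate 3 is split (16 above, 17 below). The medians are lowest in h2 replicate 1 and h1 replicate 2.

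Mice of 1 genotype differed more in these genes than in most others. The biological coefficient of variation, the relative spread between mice of a genotype after counting error, had a median of 0.148 over the 33 genes and of 0.0568 over all genes tested. In 18 of the 33 it lay above the 90th percentile of all genes. It was 0.464 for Egr2, 0.358 for Fos, 0.245 for Btg2, 0.227 for Arc and 0.173 for Egr1. At the other end, Jun (0.0442), Rgs2 (0.0458), Ier5 (0.0490) and Bdnf (0.0568) lay below the median of all genes. A given fold change therefore had a much smaller error in Jun or Ier5 than in Fos or Egr2.

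**Figure D2:**
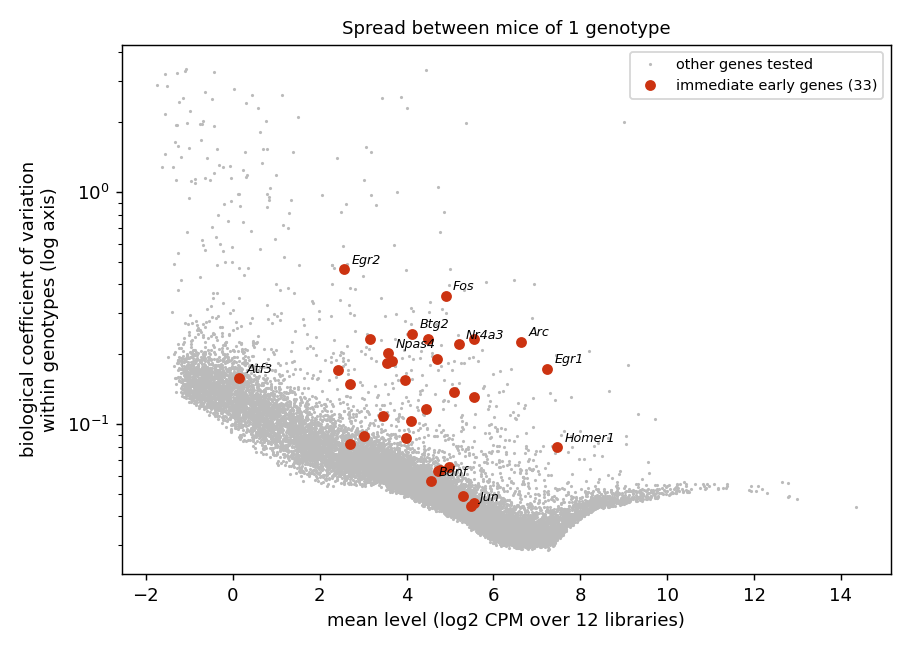
Biological coefficient of variation within genotypes (log axis) against mean level (log2 CPM) for every gene tested in grey and the 33 immediate early genes in red. Egr2 and Fos lie far above genes of like level, and Jun lies among genes of like level.

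Several libraries stood apart across the set. Among the h2 mice, replicate 1 had the lowest value for 29 of the 33 genes, whereas it was lowest of its group for 38.8% of all genes tested. Its level over the mean of the other two h2 mice was 0.196 for Egr2, 0.384 for Fos and 0.505 for Arc, but 0.880 for Npas4 and 0.964 for Jun. Among the h1 mice, replicate 1 was highest for 22 genes and replicate 2 lowest for 23. The median deviation of the set from the 12-library mean was 0.24, 0.31 and 0.42 log2 units in the h4 libraries, -0.38, 0.05 and 0.08 in h2, -0.08, -0.34 and -0.14 in h1, and -0.15, -0.02 and -0.02 in WT. The 2 libraries with the lowest medians, h2 replicate 1 and h1 replicate 2, also carry the 2 lowest library numbers in the deposited tables. The 3 h4 libraries have the highest medians and the 3 highest numbers. The WT numbers lie together, above all h1 and h2 numbers and below all h4 numbers. Genotype and library number therefore cannot be told apart in any comparison with WT or with h4. Only the h1 and h2 numbers are mixed.

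By mean level, h4 was the highest genotype for 27 of the 33 genes, against 35.4% of all genes, and h1 the lowest for 21, against 28.3%. Both held for 18 genes, against 13.9% of all genes. The 6 genes not highest in h4 were Egr3, Ier5, Dusp4 and Homer1, with the highest mean in WT, Btg2, highest in h2, and Klf4, highest in h1.

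In h4 brains, 5 of the 33 genes rose relative to WT: Jun, Atf3, Nr4a2, Gadd45b and Gadd45g. Over all genes tested, 1.64% were called higher in this comparison and 4.55% in either direction. In 18 of the 33 every h4 library lay above every WT library, a pattern that 12.1% of all genes showed. In none did every h4 library lie below every WT library, as 9.17% of all genes did. The median log2 fold change was 0.42 for the 33 genes and 0.01 for all genes. The remaining 28 did not pass the edgeR test. DESeq2 called 9 of the 33 and the fit of h4 and WT alone 10, all of them higher. Fits without 1 library moved the count of 5 to 10 without h2 replicate 1, 3 without h4 replicate 1, 2 without WT replicate 2 and 1 without WT replicate 1.

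In h4 against h1 brains, 8 of the 33 rose: Fosl2, Jun, Nr4a2, Nr4a3, Npas4, Klf10, Arc and Gadd45b. The share of all genes called higher was 2.11%, and 4.64% were called in either direction. In 25 of the 33 the h4 libraries lay above every h1 library, against 14.8% of all genes. The median log2 fold change was 0.54, against 0.01 over all genes, and 32 of 33 estimates were above 0. The count of 8 became 15 without h2 replicate 1, 4 without h4 replicate 1, and 2 without h1 replicate 2, h1 replicate 3 or h4 replicate 3. DESeq2 called 18 of the 33 and the fit of h4 and h1 alone 13, all higher. With Xist as a covariate the calls on Fosl2, Jun, Nr4a3 and Gadd45b were lost (adjusted p 0.0813, 0.0647, 0.0883 and 0.118), and DESeq2 did not call Jun (adjusted p = 0.0587) or Gadd45b (adjusted p = 0.103). The comparisons of h4 with WT and with h1 share the h4 libraries and are not independent.

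In h4 against h2 brains, Nr4a2 and Trib1 rose, where 1.54% of all genes were called higher and 3.22% in either direction. In 17 of the 33 the h4 libraries lay above every h2 library, against 12.1% of all genes, and the median log2 fold change was 0.40. The count of 2 was 5 without WT replicate 3, 4 without h1 replicate 1 or h1 replicate 3, and 1 without h2 replicate 2, h4 replicate 1 or h4 replicate 3. Without h2 replicate 1 it was again 2, made up of Nr4a2 and Fosl2. DESeq2 called 6, and 5 were called without a low-count filter. The fit of the h4 and h2 libraries alone also called 5, but not Nr4a2 (adjusted p = 0.0870).

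In h1 brains, Klf10 and Ier5 fell relative to WT, where 0.206% of all genes were called lower and 0.625% in either direction. The h1 libraries lay below every WT library in 8 of the 33, against 8.72% of all genes, and above in 1, against 6.21%. The median log2 fold change was -0.17, against 0.00 over all genes, and 24 of 33 estimates were below 0. The count of 2 was 1 without WT replicate 3 or h1 replicate 3 and 0 without h1 replicate 2 or WT replicate 1.

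In h2 brains, edgeR called none of the 33 against WT, where 0.679% of all genes were called. At an unadjusted p under 0.05 there were 5, and DESeq2 called 1, Homer1. The libraries did not overlap in 4 of the 33, with Jun and Npas4 above WT and Ier5 and Homer1 below, against 15.2% of all genes. Against h1 brains, edgeR also called none in h2 brains, where 0.722% of all genes were called. There, 11 had an unadjusted p under 0.05 and DESeq2 called 3, namely Klf4, Arc and Npas4. The libraries of h2 and h1 did not overlap in 6 of the 33, against 15.5% of all genes. For the mean of the 3 mutants against WT, Ier5 alone was called, lower, where 0.612% of all genes were called lower and 1.10% in either direction.

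**Figure D3:**
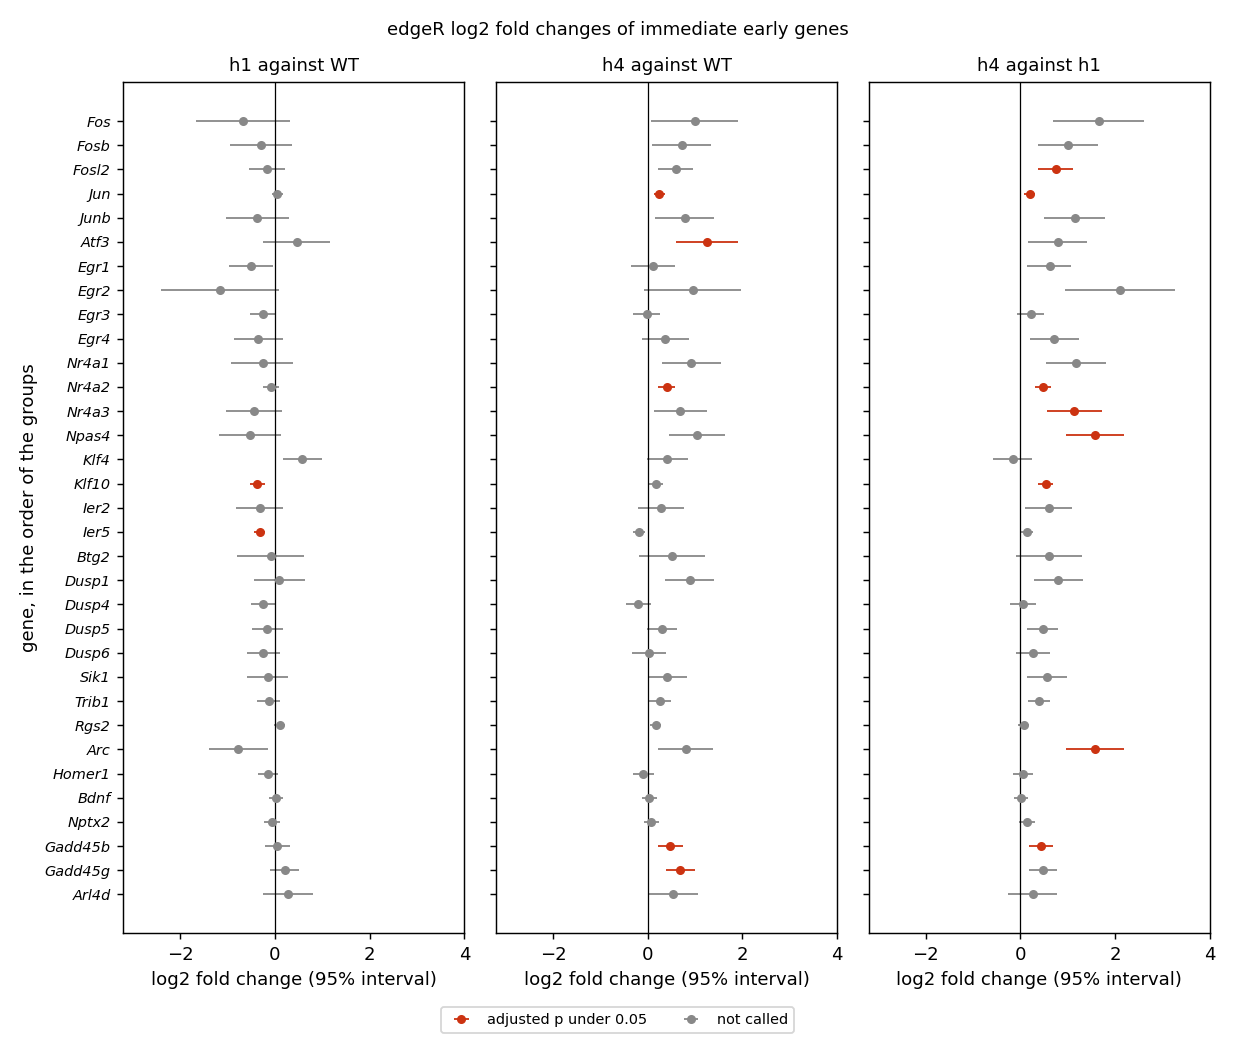
Log2 fold change (point) and 95% interval (line) from edgeR for each of the 33 genes in h1 against WT, h4 against WT and h4 against h1, with genes at an adjusted p under 0.05 in red. Intervals are wide for Fos and Egr2 and narrow for Jun, Nr4a2 and Klf10, and 32 of 33 points lie above 0 in h4 against h1.

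The AP-1 factors are leucine zipper proteins that bind DNA as pairs of Fos and Jun family members. All 6 had h4 libraries above every WT library, and Jun and Atf3 rose. Jun (ENSMUSG00000052684, chromosome 4, 95049034 to 95052222, minus strand), a partner of the Fos proteins, had 47.5, 50.3 and 50.5 CPM in h4, 45.8, 48.8 and 46.3 CPM in h2, 42.5, 42.2 and 42.7 CPM in h1, and 37.3, 44.6 and 41.9 CPM in WT. The h4 libraries lay above all h1 and WT libraries, by small steps. Jun rose in h4 against WT by 0.25 on the log2 scale (SE 0.06, edgeR adjusted p = 0.00916), a call lost without WT replicate 1 (adjusted p = 0.102). Against h1 it rose by 0.20 (SE 0.06, edgeR adjusted p = 0.0373), a call lost without any 1 of the 3 h4 or the 3 h1 libraries (adjusted p 0.0566 to 0.126).

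Atf3 (ENSMUSG00000026628, chromosome 1, 191170296 to 191218039, minus strand), a stress-induced factor of the ATF family, was the least abundant of the set. It had 1.70, 1.79 and 1.53 CPM in h4, 0.344, 0.931 and 0.976 CPM in h2, 0.640, 1.25 and 0.958 CPM in h1, and 0.607, 0.466 and 1.04 CPM in WT. Every h4 library exceeded every other library, at counts as low as 5 in the lowest library. It rose in h4 against WT by 1.25 on the log2 scale (SE 0.32, edgeR adjusted p = 0.0238). The call was lost without WT replicate 1, WT replicate 2, h4 replicate 1 or h4 replicate 2 (adjusted p 0.0649 to 0.144), and DESeq2 gave no adjusted p for it.

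Fosl2 (ENSMUSG00000029135, chromosome 5, 32135801 to 32157842, plus strand), a Fos family member, had 42.5, 51.7 and 48.1 CPM in h4, 22.3, 31.7 and 35.6 CPM in h2, 31.5, 23.8 and 28.2 CPM in h1, and 31.4, 29.4 and 33.4 CPM in WT. The h4 libraries were above all 9 others. It rose in h4 against h1 by 0.75 (SE 0.16, edgeR adjusted p = 0.0400). That call held only without h2 replicate 1 or h2 replicate 3, and was lost in the other 10 fits that leave out 1 library (adjusted p 0.0527 to 0.117).

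Fos (ENSMUSG00000021250, chromosome 12, 85473890 to 85477273, plus strand), the gene most used to mark recently active neurons, had 42.4, 41.7 and 63.6 CPM in h4, 14.7, 42.6 and 33.8 CPM in h2, 22.8, 10.1 and 13.3 CPM in h1, and 21.1, 22.6 and 30.3 CPM in WT. The h4 libraries lay above all h1 and WT libraries, while h2 ranged from the h1 level to the h4 level. The h4 mean was 3.19 times the h1 mean and 1.99 times the WT mean. Fos did not pass the test in h4 against WT (log2 fold change 0.99, SE 0.40, 95% interval 0.08 to 1.90, edgeR adjusted p = 0.241) or against h1 (1.66, SE 0.42, adjusted p = 0.0662). In h1 against WT its estimate was -0.68 (SE 0.43, edgeR adjusted p = 0.680).

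Fosb and Junb were also highest on average in h4, without passing the test. Fosb, whose protein pairs with Jun proteins, had 12.2, 13.3 and 14.2 CPM in h4, 4.69, 8.34 and 9.80 CPM in h2, 7.68, 5.71 and 6.04 CPM in h1, and 7.42, 5.77 and 10.8 CPM in WT. Junb, a Jun family member, had 27.0, 30.6 and 41.1 CPM in h4, 15.6, 29.6 and 26.8 CPM in h2, 17.7, 11.6 and 14.7 CPM in h1, and 15, 21.2 and 20.8 CPM in WT. For both, the h4 libraries were above all WT and h1 libraries. The log2 fold change of h4 against WT was 0.72 for Fosb (SE 0.27, edgeR adjusted p = 0.205) and 0.78 for Junb (SE 0.27, edgeR adjusted p = 0.176).

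None of the 4 EGR zinc finger factors was called by edgeR in any comparison. In h4 against h1, 3 of them had an unadjusted p under 0.05, and DESeq2 called Egr1 and Egr2. Egr1 (ENSMUSG00000038418, chromosome 18, 34859823 to 34864984, plus strand), which is expressed at rest in forebrain neurons as well as after stimulation, had 165, 186 and 189 CPM in h4, 105, 174 and 151 CPM in h2, 141, 93.9 and 113 CPM in h1, and 172, 179 and 146 CPM in WT. The h4 and WT libraries overlapped, and the h1 libraries all lay below WT. Its estimate was 0.11 in h4 against WT (95% interval -0.35 to 0.57), which leaves room for changes in either direction, and -0.51 in h1 against WT (SE 0.20, edgeR adjusted p = 0.457).

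Egr2, known in the brain for its rapid induction by strong synaptic stimulation, had 9.66, 8.92 and 13.4 CPM in h4, 1.31, 7.53 and 5.81 CPM in h2, 3.89, 1.44 and 2.04 CPM in h1, and 5.41, 4.84 and 6.20 CPM in WT. Every h4 library exceeded the other 9, and every h1 library lay below WT. The h4 mean was 4.34 times the h1 mean, and the log2 difference in the test was 2.11 (SE 0.50, edgeR adjusted p = 0.0566). Egr3 and Egr4, the other two members, averaged 18.3 ± 3.09 and 14.8 ± 2.56 CPM in h4 and 18.4 ± 3.27 and 11.4 ± 1.01 CPM in WT (SD, n = 3 each).

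The 3 NR4A orphan receptors, nuclear receptors controlled mainly through their amount, were above every WT library in all h4 libraries. Nr4a2 (ENSMUSG00000026826, chromosome 2, 57106830 to 57124003, minus strand), which is also needed for midbrain dopamine neurons, had 36.0, 40.1 and 41.6 CPM in h4, 23.8, 31.8 and 32.0 CPM in h2, 28.7, 26.0 and 28.5 CPM in h1, and 29.8, 29.2 and 29.6 CPM in WT. The h4 libraries lay above all others, and the WT libraries differed little from each other. Nr4a2 rose in h4 by 0.40 against WT (SE 0.08, edgeR adjusted p = 0.00780), by 0.40 against h2 (SE 0.08, adjusted p = 0.00953) and by 0.48 against h1 (SE 0.08, adjusted p = 0.00214). It was called in each of these 3 comparisons. Against h1 and h2 the calls held in all 12 fits that leave out 1 library (highest adjusted p 0.0182 and 0.0477), although the call against h2 was lost in the fit of h4 and h2 alone (adjusted p = 0.0870). Against WT it held in 11, the exception being WT replicate 2 (adjusted p = 0.0508).

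Nr4a3 (ENSMUSG00000028341, chromosome 4, 48045153 to 48086447, plus strand) had 54.1, 54.1 and 61.1 CPM in h4, 19.4, 30.6 and 41.3 CPM in h2, 31.3, 22.3 and 22.6 CPM in h1, and 34.3, 28.7 and 41.2 CPM in WT. All h4 libraries were above all others. It rose in h4 against h1 by 1.14 (SE 0.25, edgeR adjusted p = 0.0452). The call held without WT replicate 3, h2 replicate 1 or h2 replicate 3 and lost without any other library (adjusted p 0.0535 to 0.146). Nr4a1 (ENSMUSG00000023034, chromosome 15, 101254269 to 101274795, plus strand) had 60.3, 62.4 and 88.7 CPM in h4, 30.5, 59.9 and 55.9 CPM in h2, 33.4, 28.1 and 30.2 CPM in h1, and 29.1, 45.7 and 36.0 CPM in WT. Its h4 libraries were above all others, by a small margin over 2 of the h2 libraries. It did not pass the test in h4 against h1 (1.18, SE 0.27, edgeR adjusted p = 0.0515) or against WT (0.92, SE 0.27, adjusted p = 0.115).

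Among the other early regulators, Npas4 and Klf10 rose in h4 against h1, and Klf10 and Ier5 fell in h1 against WT. Npas4 (ENSMUSG00000045903, chromosome 19, 4984355 to 4990316, minus strand), a neuron-specific factor that responds to calcium entry and shapes inhibitory synapses, had 15.1, 16.5 and 21.6 CPM in h4, 14.5, 21.4 and 11.5 CPM in h2, 6.70, 5.94 and 5.04 CPM in h1, and 7.47, 10.1 and 8.03 CPM in WT. The h4 and h2 libraries were all above WT, and the h1 libraries all below it. Npas4 rose in h4 against h1 by 1.58 (SE 0.27, edgeR adjusted p = 0.0165), a call lost without h1 replicate 2, h1 replicate 3 or h4 replicate 3 (adjusted p 0.0523 to 0.0699). It did not pass in h4 against WT (1.05, SE 0.26, edgeR adjusted p = 0.0627), h2 against WT (0.90, SE 0.26, adjusted p = 0.220) or h2 against h1 (1.43, SE 0.27, adjusted p = 0.0624). Unlike most of the set, it was not low in h2 replicate 1.

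Klf10 (ENSMUSG00000037465, chromosome 15, 38291463 to 38300706, minus strand), a zinc finger factor first known as an early response to TGF-beta, had 31.0, 32.6 and 29.8 CPM in h4, 24.5, 25.4 and 27.2 CPM in h2, 23.5, 19.9 and 20.2 CPM in h1, and 26.0, 25.1 and 31.6 CPM in WT. The h1 libraries were below all others, and h4 and WT overlapped. Klf10 rose in h4 against h1 by 0.54 (SE 0.08, edgeR adjusted p = 0.000265), in all 12 fits that leave out 1 library (highest adjusted p 0.00410). In h1 it fell by 0.37 on the log2 scale against WT (SE 0.08, edgeR adjusted p = 0.0256). This call was lost without WT replicate 1, WT replicate 3, h1 replicate 2 or h1 replicate 3 (adjusted p 0.0777 to 0.194) with Xist as a covariate (adjusted p = 0.187) and in the fit of h1 and WT alone (adjusted p = 0.0576).

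Ier5 (ENSMUSG00000056708, chromosome 1, 155096361 to 155099636, minus strand), an early response gene linked to the heat shock factor HSF1, averaged lower in each mutant than in WT. Of the single mutants, it was called lower in h1 alone. It had 37.6, 42.0 and 38.9 CPM in h4, 37.3, 35.5 and 39.9 CPM in h2, 37.4, 33.4 and 35.3 CPM in h1, and 47.1, 44.2 and 41.8 CPM in WT. The h1 and h2 libraries lay below all WT libraries, and 1 h4 library overlapped the lowest WT library. In h1, Ier5 fell by 0.32 on the log2 scale against WT (SE 0.06, edgeR adjusted p = 0.00801), a call lost without WT replicate 1 or h1 replicate 2 (adjusted p 0.123 and 0.106). It did not pass in h2 against WT (-0.24, SE 0.06, edgeR adjusted p = 0.0553) or h4 against WT (-0.18, SE 0.06, adjusted p = 0.0993). For the mean of the 3 mutants the log2 fold change was -0.25 (SE 0.05, edgeR adjusted p = 0.00938), lost without WT replicate 1 (adjusted p = 0.268) or WT replicate 2 (adjusted p = 0.0640).

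The other 3 genes of this role were not called by edgeR in any comparison, and DESeq2 called Klf4 in h2 against h1. Btg2, an antiproliferative gene, averaged 20.3 ± 4.44 CPM in h4, 21.4 ± 8.81 in h2, 13.2 ± 1.57 in h1 and 14.2 ± 2.33 in WT (SD, n = 3 each). Ier2 averaged 6.08 ± 1.72 CPM in h4 and 3.91 ± 0.871 CPM in h1 (SD, n = 3 each). Klf4, a zinc finger factor that is also strong in endothelium, had h1 libraries at 6.25, 7.10 and 10.6 CPM, against 4.53, 5.36 and 6.35 CPM in WT. Its log2 fold change in h1 against WT was 0.58 (SE 0.19, edgeR adjusted p = 0.285), with overlapping libraries.

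Of the feedback regulators, which damp kinase signalling after a stimulus, Trib1 alone was called by edgeR. Trib1 (ENSMUSG00000032501, chromosome 15, 59648350 to 59657099, plus strand), a pseudokinase that steers proteins to degradation, had 20.2, 18.4 and 19.1 CPM in h4, 12.1, 14.2 and 14.7 CPM in h2, 15.4, 13.5 and 14.7 CPM in h1, and 16, 19.3 and 12.7 CPM in WT. The h4 libraries were above all h2 and h1 libraries and overlapped WT. It rose in h4 against h2 by 0.48 (SE 0.11, edgeR adjusted p = 0.0268). The call was lost without h2 replicate 1, h2 replicate 2 or any 1 of the 3 h4 libraries (adjusted p 0.0582 to 0.119), and with Xist as a covariate (adjusted p = 0.0536).

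Dusp1, a nuclear phosphatase of MAP kinases, had 34.8, 30.7 and 45.4 CPM in h4, 18.9, 32.8 and 27.0 CPM in h2, 20.0, 19.9 and 22.9 CPM in h1, and 16.8, 24.2 and 18.3 CPM in WT. The h4 libraries were above all h1 and WT libraries, and h2 spanned the gap. Its log2 fold change in h4 against WT was 0.89 (SE 0.23, edgeR adjusted p = 0.0744). Sik1, a salt-inducible kinase that restrains CREB coactivators, averaged 19.9 ± 2.22 CPM in h4 and 14.8 ± 0.483 CPM in WT (SD, n = 3 each), and did not pass the test. Dusp4, Dusp5, Dusp6 and Rgs2 had estimates of -0.20, 0.31, 0.02 and 0.17 in h4 against WT, none called by edgeR.

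Of the 4 synaptic effectors, Arc was called. Arc (ENSMUSG00000022602, chromosome 15, 74669083 to 74672570, minus strand), whose protein drives AMPA receptor removal and whose transcript moves to dendrites, had 136, 161 and 176 CPM in h4, 59.7, 121 and 116 CPM in h2, 63.9, 48.0 and 45.1 CPM in h1, and 76.7, 104 and 88.3 CPM in WT. The h4 libraries were above all others and the h1 libraries below every WT library. The h4 mean was 3.01 times the h1 mean and 1.76 times the WT mean. Arc rose in h4 against h1 by 1.58 (SE 0.27, edgeR adjusted p = 0.0170), a call lost without h1 replicate 2, h1 replicate 3 or h4 replicate 3 (adjusted p 0.0590 to 0.0713). It did not pass in h4 against WT (0.81, SE 0.26, edgeR adjusted p = 0.142) or in h1 against WT (-0.77, SE 0.27, adjusted p = 0.380).

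Homer1, a scaffold gene whose short form is the activity-induced one, was counted over all its transcripts. It averaged 185 ± 18.6 CPM in h4, 150 ± 9.74 CPM in h2, 175 ± 2.90 CPM in h1 and 195 ± 21.9 CPM in WT (SD, n = 3 each). The h2 libraries lay below all WT libraries, and the estimate was -0.38 (SE 0.10, edgeR adjusted p = 0.160). Bdnf averaged 23.9 ± 1.74 CPM in h4, 23.5 ± 1.87 in h2, 23.4 ± 1.56 in h1 and 23.2 ± 1.42 in WT (SD, n = 3 each). Its 95% interval in h4 against WT ran from -0.11 to 0.19 on the log2 scale. The estimates for Fos (0.99) and Arc (0.81) lie outside it, but neither gene was called in that comparison. The Fos interval (0.08 to 1.90) overlapped that of Bdnf, and the Arc interval (0.22 to 1.39) did not. These intervals are not adjusted for the number of genes, and a difference between genes was not tested. Nptx2, a secreted pentraxin that gathers AMPA receptors, had an estimate of 0.08 in the same comparison (95% interval -0.08 to 0.25).

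In the last group, Gadd45b and Gadd45g, stress and growth arrest genes linked to activity-dependent DNA demethylation, rose in h4. Gadd45b (ENSMUSG00000015312) had 7.63, 7.72 and 8.94 CPM in h4, 5.72, 6.88 and 5.73 CPM in h2, 6.60, 5.99 and 5.17 CPM in h1, and 4.85, 5.68 and 6.74 CPM in WT. The h4 libraries were above all others. It rose in h4 by 0.48 against WT (SE 0.13, edgeR adjusted p = 0.0264) and by 0.44 against h1 (SE 0.13, adjusted p = 0.0440). The first call was lost without WT replicate 1, WT replicate 2, h4 replicate 1 or h4 replicate 3 (adjusted p 0.0559 to 0.192), and DESeq2 gave no adjusted p for it. The second was lost without h1 replicate 2, h1 replicate 3 or any 1 of the 3 h4 libraries (adjusted p 0.0552 to 0.209).

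Gadd45g (ENSMUSG00000021453), whose window held no TGACG match, had 17.4, 12.8 and 13.6 CPM in h4, 9.23, 9.52 and 11.4 CPM in h2, 12.2, 10.7 and 8.29 CPM in h1, and 8.26, 8.71 and 10.1 CPM in WT. Again every h4 library was above the other 9. It rose in h4 against WT by 0.69 (SE 0.14, edgeR adjusted p = 0.0104), a call lost without WT replicate 1 or WT replicate 2 (adjusted p 0.0761 and 0.0700). Arl4d, a small GTPase gene, had 15.2, 16.3 and 15.3 CPM in h4, 8.20, 11.5 and 14.7 CPM in h2, 14.8, 14.5 and 9.37 CPM in h1, and 8.92, 12.3 and 10.8 CPM in WT. Its h4 libraries were above all others, and it was not called by edgeR.

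**Figure D4:**
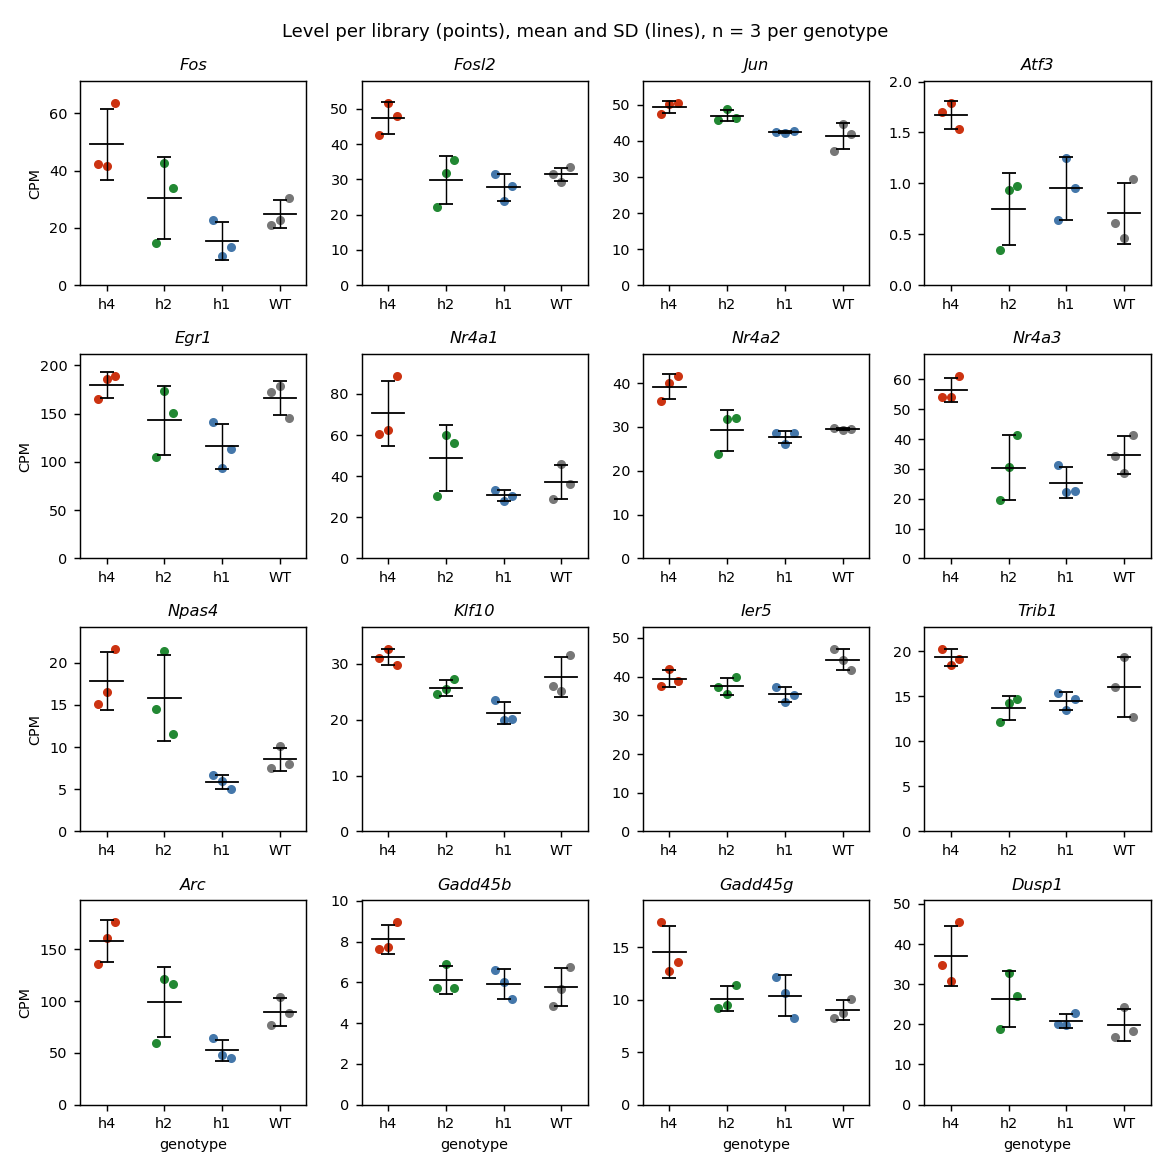
CPM of 16 of the genes in each library (points), with the mean (bar) and SD (whiskers) of 3 mice per genotype, in the order h4, h2, h1, WT. In h4, Nr4a2, Nr4a3, Fosl2, Atf3 and Arc lie above all other libraries, and for Fos and Arc 1 h2 mouse lies far below the other two.

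The genes that carry activity to these promoters were read from a list of 25 signalling proteins and bound factors. In h4 against WT, where 2.91% of all genes were called lower, 5 of 25 fell: Crtc1, a CREB coactivator (-0.17, edgeR adjusted p = 0.00822), Mrtfa, an SRF coactivator (-0.28, adjusted p = 0.0156), Camk2a, a calcium-dependent kinase (-0.17, adjusted p = 0.0179), Mef2c, a bound activator (-0.17, adjusted p = 0.0196), and Camkk2. Mrtfa and Mef2c also fell in h4 against h1, by 0.32 and 0.20 on the log2 scale, where 2.53% of all genes were called lower. In h4 against h2, Mef2c fell by 0.21 and Ppp3ca, a calcineurin subunit, by 0.15, where 1.68% of all genes were called lower. The median of the list in h4 against WT was -0.03, against 0.01 over all genes.

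A list of 30 other activity-responsive genes outside the set was also read. In h4 against WT, 2 of 30 rose, where 1.64% of all genes were called higher. They were Sertad1 (0.47, edgeR adjusted p = 0.0337) and Fbxo33 (0.17, adjusted p = 0.0438). Against h1, 3 rose, where 2.11% of all genes were called higher. They were Kdm6b, a histone demethylase (0.30, edgeR adjusted p = 0.00756), Sertad1 (0.50, adjusted p = 0.0240) and Tiparp (0.46, adjusted p = 0.0480). Rasd1, a Ras-like gene (-0.43, edgeR adjusted p = 0.0430), fell, where 2.53% of all genes were called lower. Against h2, Mcl1 and Sertad1 rose in h4, by 0.16 and 0.46, where 1.54% of all genes were called higher. In h2 against h1, Ccn2 alone was called, lower, where 0.534% of all genes were called lower. The median log2 fold change of the 30 genes in h4 was 0.07 against WT, 0.07 against h1 and 0.14 against h2.

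Markers of several cell types moved in the same comparisons, and their part in the results was not tested. Forebrain excitatory neurons, in which many of the early genes are strong, had 2 of 9 markers called lower by edgeR in h4 than in WT. They were Nrgn (-0.26) and Tbr1 (-0.19), where 2.91% of all genes were called lower. The summed level of the 9 was 2036 to 2193 CPM in h4 and 2189 to 2313 CPM in WT. Astrocyte markers were called higher in h4 than in WT for 4 of 10, against 1.64% of all genes. Their sums were 5473 to 5596 CPM in h4 and 5444 to 5601 CPM in WT. In h1, 3 of 10 endothelial markers were lower than in WT (Cd93, Cldn5 and Cdh5), against 0.206% of all genes. Their sums were 258 to 285 CPM in h1 and 298 to 328 CPM in WT. Oligodendrocyte markers were higher in h1 than in WT for 7 of 10, against 0.418% of all genes. Their sums were 14066 to 14489 CPM in h1 and 10905 to 12446 CPM in WT. In h4 against h1, 2.53% of all genes were called lower and 2.11% higher. There, 6 of 10 oligodendrocyte markers were lower (Mobp, Mbp, Cldn11, Mag, Mog and Mal). Their sums were 12314 to 13214 CPM in h4 and 14066 to 14489 CPM in h1. Cd93 and Cldn5 of the endothelial list were higher, with sums of 297 to 327 CPM in h4 and 258 to 285 CPM in h1. Syt1 of the neuron list, Tbr1 of the forebrain list and Pde10a of the striatal list were lower in h4 than in h1. Of the astrocyte list, 2 of 10 were higher and 2 lower. Every marker reported passed the low-count filter.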

How the data were processed

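Per the labels' protocols, libraries were poly(A)-selected with the TruSeq v2 kit and sequenced from both ends (100 bp). The kit keeps no strand, so overlapping genes on opposite strands are not separated. The submitters' processing notes name Bowtie2 2.2.0 and RSEM 1.2.12. Which genome build and annotation they used is not given in the sources used here. In each table the authors deposited expected counts per gene, in which RSEM divides a read pair among the genes it matches. The deposited TPM values are scaled to transcript length and library total, and were used only to compare levels between genes. The deposited FPKM values, scaled to transcript length and fragments, were not used.

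Symbols and gene positions came from GENCODE M21 (GRCm38) by Ensembl identifier, for 37607 of 38924 genes. Promoter windows came from RefSeq (GRCm38.p6), upstream bases only. CPM are expected counts over the total of the library. Counts were rounded and tested with edgeR 4.0.16 in R 4.3.3 (quasi-likelihood, robust, TMM factors 0.991 to 1.012, low-count filter removing 22431 genes, 1 mean per genotype over all 12 libraries). Genes at a Benjamini-Hochberg adjusted p under 0.05 over all 16493 genes were called; 7 comparisons were made. The common biological coefficient of variation was 0.0531. The script was tested on simulated data. Alternatives were DESeq2 1.42.0, RLE factors, no filter, an Xist covariate, fits of the compared groups only, a block on title numbers, and leaving out each library. The series design names separate mice; litters and cages are not named.

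The members and gene lists were chosen with earlier results of these data known. Values in every library are given for members called in any comparison, members with non-overlapping mutant and WT libraries and a log2 fold change of at least 0.5 in size, and Fos, Egr1, Arc, Npas4 and Nr4a1. Up to 4 called genes per pathway list and comparison are named, with any others added by name. A marker of the forebrain list is not reported here.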

Additional observations from a re-analysis of the deposited data

How the results depend on the processing

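The 18 calls on single genes kept their sign under every setting that gave a value, but the counts of the 33 genes called moved. DESeq2 called 1 gene in h2 against WT, 9 in h4 against WT, 3 in h2 against h1, 18 in h4 against h1 and 6 in h4 against h2. Without a low-count filter the counts were 2 in h2 against WT, 2 for the mean of the mutants, 1 in h2 against h1 and 5 in h4 against h2. Xist as a covariate gave 1 in h1 against WT, 1 in h2 against h1, 4 in h4 against h1 and 1 in h4 against h2. Fits of the compared groups only gave 10 in h4 against WT, 2 in h2 against h1, 13 in h4 against h1 and 5 in h4 against h2. Fits without 1 library gave 0 to 2 in h1 against WT, 0 to 2 in h2 against WT, 1 to 10 in h4 against WT, 0 to 1 for the mean of the mutants, 0 to 1 in h2 against h1, 2 to 15 in h4 against h1 and 1 to 5 in h4 against h2. Of the calls on single genes named above, RLE factors and the absent filter kept 18 of 18, DESeq2 14 of 16 with an adjusted p, the Xist covariate 12 of 18, groups alone 15 of 17, and fits without 1 library 155 of 216.

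Deviations of h1 and h2 mice with the same number at the end of their titles correlated at -0.147, -0.112 and 0.028. With so few mice per genotype, these correlations cannot decide whether the title numbers pair the mice. A replicate block on the title numbers raised the count in h2 against h1 from 0 to 4 genes (Klf4, Homer1, Npas4 and Ier2). Over all genes the count rose from 119 to 204. The cause of these moves was not tested.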

Other observations

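The deposited library numbers give an order in which h1 and h2 libraries come first, mixed, then the WT libraries, then the h4 libraries. In that order the median log2 deviation of the 33 genes from their 12-library mean was -0.34 (h1 replicate 2), -0.38 (h2 replicate 1), 0.05 (h2 replicate 2), -0.08 (h1 replicate 1), -0.14 (h1 replicate 3), 0.08 (h2 replicate 3), -0.15, -0.02 and -0.02 (WT) and 0.24, 0.31 and 0.42 (h4). What the number marks is not given in the sources used here, and its part in the levels was not tested.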
